A study of Mus musculus with 3 samples.

Results

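The Hox genes of MEL cells are described here by their accessible chromatin. MEL is a mouse erythroleukemia line, an established line of immortalised red cell precursors. The members are the 39 protein-coding genes of the GENCODE M21 basic annotation named Hoxa, Hoxb, Hoxc or Hoxd and a number, out of 21851 protein-coding genes. They lie in 4 clusters, with 11 genes in Hoxa, 10 in Hoxb, 9 in Hoxc and 9 in Hoxd. Chromatin was probed by DNase-seq, in which DNase I cuts DNA that is not protected by nucleosomes. The 3 libraries were all of MEL cells, and the labels give no treatment, genotype or time. Biological replicate 1 had 2 libraries, which carry the technical numbers 1 and 3. Biological replicate 2, from another biosample of the line, had 1. The deposited regions comprise 281600 peaks for replicate 1, called on its merged libraries, and 89046 peaks for replicate 2. With 1 list per biological replicate and 1 condition, no test between groups was possible, and no p-value is given.

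Each deposited peak is 150 bp wide and carries the authors' score, a whole number from 1 to 150. What the score counts is not given in the sources used here, and the read depth is unknown. In all 38 overlapping pairs of peaks inside the clusters the replicate 1 score was the higher, with medians of 119.5 in replicate 1 and 30 in replicate 2, so a pair of scores does not compare accessibility between the replicates. Where 2 scores are given for a gene, they are those of replicate 1 and then replicate 2. The line was checked against its markers. Of 12 erythroid markers, 11 (64.6 to 98.5%) had a promoter peak in replicate 1 and 9 (46.8 to 91.1%) in replicate 2. The share over all protein-coding genes was 58.3% in replicate 1 and 49.4% in replicate 2. The erythroid interval lay above this share in replicate 1 and held it in replicate 2. Epor scored 149 and 106, Klf1 140 and 84, and Gata1 141 and 71, while Slc4a1 had no promoter peak in either list. Of 12 fibroblast markers, 5 (19.3 to 68%) and 3 (8.89 to 53.2%) had a promoter peak, and both intervals hold the share over all genes. Thy1 (138 and 54), Col1a1 (132 and 35) and Pdgfra (127 and 34) had one in both lists, while Col3a1, Twist1, Twist2, Prrx1, Dcn, Lum and Fbn1 had none in either. The part of other cells in any result was not tested.

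Hox genes encode homeodomain transcription factors that set position along the body axis. Each cluster arose by duplication of an ancestral one, so genes with the same number in different clusters form a paralog group, numbered from 1 at the end that acts toward the head to 13 at the end that acts toward the tail. In embryos the genes are switched on in this order. In blood formation some Hox genes, above all Hoxa9 and others of the Hoxa and Hoxb clusters, are active in stem and progenitor cells and are turned down as cells mature. Inactive clusters are typically covered by Polycomb complexes, and CTCF, a factor that anchors chromatin loops, divides active from inactive stretches.

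The sequences under the peaks that the results turn on come first. They were read from the GRCm38 reference, the same build as the files' mm10, on the plus strand. Capitals mark every match to a searched motif, which is named with each sequence; the relaxed CTCF form is the CTCF consensus with 3 more open positions. The first 3 are the highest replicate 2 peaks of their clusters, the next 2 are promoter peaks found in both lists, and the last holds a relaxed CTCF match. None of these 6 overlaps an annotated untranslated region.
Highest Hoxb peak, chr11:96199756-96199905, ETS match: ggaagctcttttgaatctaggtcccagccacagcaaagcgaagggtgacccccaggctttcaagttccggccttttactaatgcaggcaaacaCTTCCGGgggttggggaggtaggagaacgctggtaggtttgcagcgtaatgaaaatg
Highest Hoxc peak, chr15:102999296-102999445, SP/KLF match: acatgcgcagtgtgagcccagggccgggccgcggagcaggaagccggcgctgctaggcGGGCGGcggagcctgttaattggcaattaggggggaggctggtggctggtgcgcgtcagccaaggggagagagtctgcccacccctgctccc
Highest Hoxd peak, chr2:74715856-74716005, relaxed CTCF match and then SP/KLF match: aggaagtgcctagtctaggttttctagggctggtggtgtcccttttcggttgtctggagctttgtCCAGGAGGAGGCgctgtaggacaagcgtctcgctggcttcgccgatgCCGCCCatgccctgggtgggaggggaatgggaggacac
Hoxb13 promoter peak, chr11:96194156-96194305, no match: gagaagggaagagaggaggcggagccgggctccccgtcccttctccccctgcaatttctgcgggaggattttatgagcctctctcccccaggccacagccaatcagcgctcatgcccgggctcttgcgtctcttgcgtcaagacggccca
Hoxc9 promoter peak, chr15:102976776-102976925, no match: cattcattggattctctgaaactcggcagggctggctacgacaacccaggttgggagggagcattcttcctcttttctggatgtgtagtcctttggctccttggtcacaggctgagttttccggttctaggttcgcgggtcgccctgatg
Peak between Hoxd13 and Hoxd12, chr2:74673096-74673245, SP/KLF matches and then a relaxed CTCF match: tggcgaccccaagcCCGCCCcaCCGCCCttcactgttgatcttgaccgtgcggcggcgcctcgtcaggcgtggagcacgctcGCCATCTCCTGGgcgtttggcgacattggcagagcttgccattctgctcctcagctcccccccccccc

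Most Hox promoters carried no peak. A peak was counted at a promoter where its centre lay at most 1000 bp from a protein-coding transcript's start. Of the 39 Hox genes, 11 (28.2%, Wilson 95% interval 16.5 to 43.8%) had one in replicate 1, against 58.3% of all protein-coding genes. In replicate 2 it was 7 (17.9%, 8.98 to 32.7%), against 49.4% of all genes, and all 7 were among the 11. Both Hox intervals end below the share over all genes. They cover counting error over genes only, and neighbouring Hox genes are not independent. The median promoter score, with genes lacking a peak set to 0, was 0 for the Hox genes and 103 for all genes in replicate 1, and 0 for both in replicate 2. Among genes that had a promoter peak, the median score was 105 for the Hox genes and 139 for all genes in replicate 1, and 44 and 63 in replicate 2.

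Many Hox promoters are rich in CpG, a feature that goes with open promoters across the genome. Of the 39 genes, 24 had a CpG-rich start, with at least 50% GC and an observed-to-expected CpG ratio of at least 0.6 in the 500 bp to either side of the gene's outermost start. Only 3 of these 24 (12.5%, 4.34 to 31%) had a promoter peak in replicate 1, and 2 did (8.33%, 2.32 to 25.8%) in replicate 2. The same class over all genes had one in 81% of cases in replicate 1 and 75.6% in replicate 2. The class was set at the outermost start and the peaks at protein-coding starts of the basic set, so the places can differ. Hoxa7, in the CpG-rich class, was counted without a peak. Yet a peak scoring 117 and 34 was centred 23 bp from its outermost start, which is outside the basic set. At every Hox start, at least 92.1% of the 32-base words in the promoter window occurred once on the placed chromosomes.

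Among the clusters Hoxc had the most genes with a promoter peak. It had 5 of 9 genes with one in replicate 1 and 3 of 9 in replicate 2, Hoxb 4 and 2 of 10, Hoxa 1 and 1 of 11, and Hoxd 1 and 1 of 9. By paralog group, 2 of 12 genes of groups 1 to 4 had one in replicate 1 and 1 in replicate 2. Of the 11 genes of groups 5 to 8 the counts were 5 and 2, and of the 16 genes of groups 9 to 13 they were 4 and 4.

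**Figure D1:**
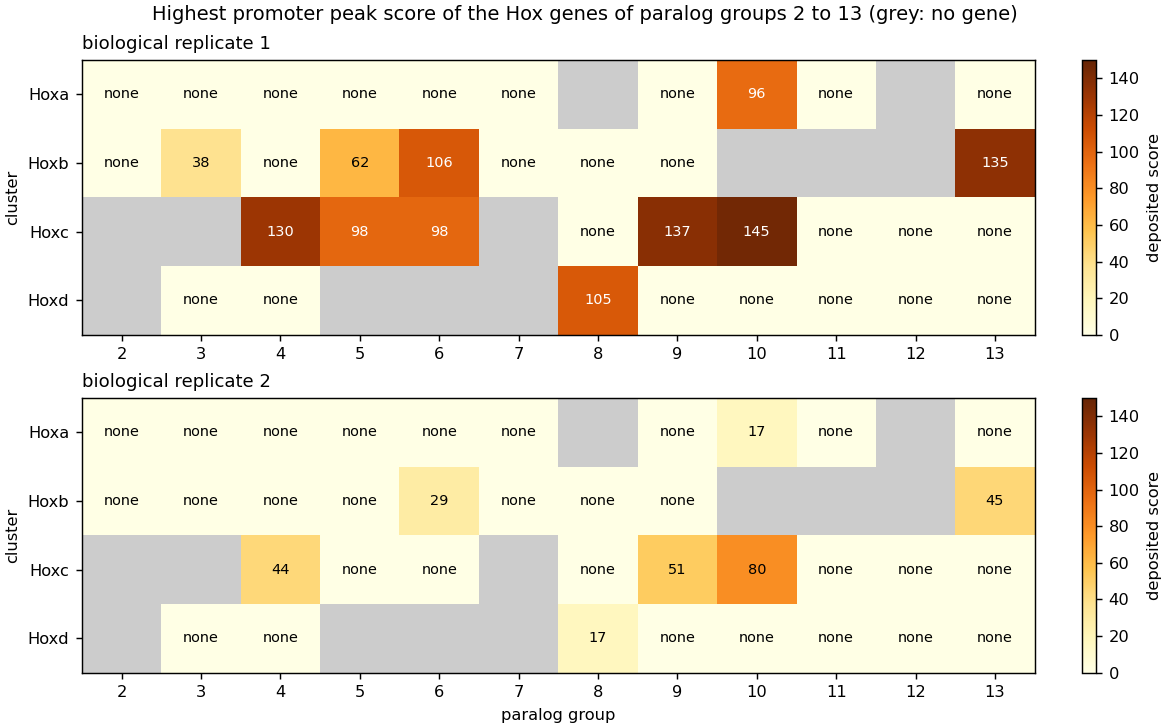
Deposited score of the strongest promoter peak of each Hox gene of paralog groups 2 to 13 in replicate 1 (top) and replicate 2 (bottom), by cluster (rows) and paralog group (columns); "none" marks a gene with no peak centre at most 1000 bp from a start and grey a position with no gene. The filled cells gather in the Hoxc row, where Hoxc10 has the highest score in both lists, 145 and 80.

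In the Hoxc cluster Hoxc10, a gene of the lumbar and hindlimb program, had the highest Hox promoter score. It scored 145 in replicate 1, from a peak centred 85 bp from its start, and 80 in replicate 2. It had 4 promoter peaks in replicate 1 and 3 in replicate 2. Hoxc9, which patterns the thoracic level, scored 137 and 51, from a peak at the same position in both lists and 181 bp from the start. Hoxc4, which acts at the cervical level, scored 130 and 44. Hoxc5 and Hoxc6, with a separate peak each, both scored 98 in replicate 1, and neither had one in replicate 2. No promoter peak was listed at Hoxc8, Hoxc11, Hoxc12 or Hoxc13. The choice of annotated starts matters for several genes. With 1 start per gene, Hoxc4 had no promoter peak in replicate 2, and Hoxb3 of the Hoxb cluster had none in replicate 1. Longer transcripts outside the basic set start further upstream, at 102967443 for Hoxc5 and 102998257 for Hoxc6. With the starts of the comprehensive annotation, an alternative chosen after the data were seen, Hoxc5 reached 145 and 80, from the Hoxc10 promoter peak, and Hoxc6 reached 149 and 82. These starts gave 12 Hox genes with a promoter peak in replicate 1 and 10 in replicate 2. Of all protein-coding genes, 62% and 52.3% had one with these starts.

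In the Hoxb cluster Hoxb13, the outlying gene at the tail end that acts in tail and prostate, scored 135 and 45, from a peak at the same position in both lists and 85 bp upstream of the start. Hoxb6 scored 106 and 29. Its peak, at chr11:96292816-96292965 in replicate 2, lay at the upstream start of the gene and inside an annotated untranslated exon. Hoxb5 scored 62 in replicate 1, 261 bp from its start, and Hoxb3 scored 38, 878 bp from its start. Neither had a promoter peak in replicate 2. No promoter peak was listed at Hoxb1, Hoxb2, Hoxb4, Hoxb7, Hoxb8 or Hoxb9. Hoxb4 and Hoxb3 are among the Hox genes known from blood stem cells.

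In the Hoxa cluster Hoxa10, a regulator of myeloid and uterine development, had a promoter peak. It scored 96 in replicate 1 and 17 in replicate 2, from a peak at the same position in both lists, chr6:52240476-52240625, 303 bp from the start and inside an annotated untranslated region. Hoxa9, its neighbour and a frequent driver of leukemia, had no promoter peak, and the nearest peak lay 4358 bp from its start, at 117 in replicate 1 and 34 in replicate 2. No promoter peak was listed at Hoxa2, Hoxa3, Hoxa4, Hoxa5, Hoxa6, Hoxa7, Hoxa11 or Hoxa13. In the Hoxd cluster Hoxd8 scored 105 and 17. The other Hoxd genes, Hoxd1, Hoxd3, Hoxd4, Hoxd9, Hoxd10, Hoxd11, Hoxd12 and Hoxd13, had none.

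The window of 1000 bp left a few genes just outside. Hoxd4 had its nearest replicate 1 peak at 1093 bp with a score of 40, and Hoxa3 at 1276 bp with a score of 34. Just inside was Hoxb3 at 878 bp. A window of 2500 bp raised the replicate 1 count to 17 genes. Hoxa3, Hoxa7, Hoxc12, Hoxd4 and Hoxd12 were among those added. Hoxa7 depended on the annotation. With the comprehensive starts it had a peak 23 bp from an upstream start, with scores of 117 and 34.

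The clusters as stretches of DNA were not poor in peaks. A cluster runs here from the outermost start to the outermost end of its Hox genes. The 4 clusters span 492 kb and held 114 peaks in replicate 1 and 39 in replicate 2, which is 23.2 and 7.93 peaks per 100 kb. The 100 kb on either side of each cluster held 17.6 and 5.5 per 100 kb, and the placed chromosomes as a whole 10.6 and 3.36. Hoxc held 53 of the 114 replicate 1 peaks. In replicate 1 Hoxa and Hoxd, at 11.4 and 10.3 per 100 kb, lay near the 10.6. In replicate 2 Hoxa, at 3.8, lay near the 3.36, and Hoxd, at 7.23, lay above it. The median score inside the clusters was 98, against 73 over all peaks, in replicate 1, and 30, against 32 over all peaks, in replicate 2. A replicate 2 peak overlapped 32.5% (24.6 to 41.5%) of the replicate 1 cluster peaks, against 30.2% of all peaks of that list. A replicate 1 peak overlapped 97.4% (86.8 to 99.5%) of the replicate 2 cluster peaks, against 94.7% of all peaks of that list.

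**Figure D2:**
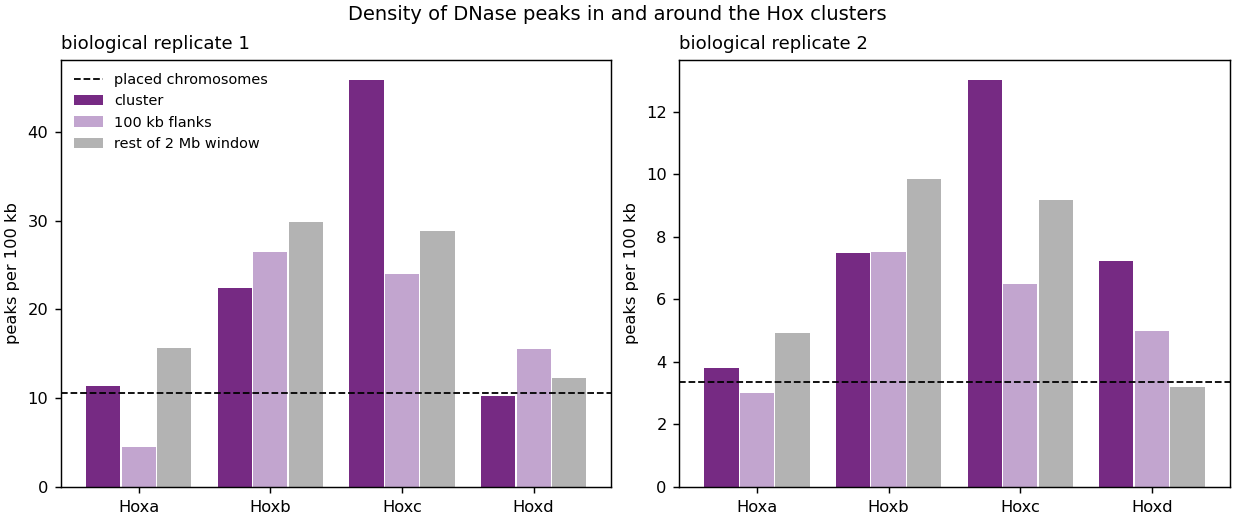
Peaks per 100 kb in each Hox cluster, in its 100 kb flanks and in the rest of a 2 Mb window around it (flanks included), for replicate 1 (left) and replicate 2 (right); the dashed line is the mean over the placed chromosomes. Hoxc stands above its surroundings in both panels, with 45.8 and 13 peaks per 100 kb, and Hoxb does not.

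The clusters were unequal in density. Hoxc, on chr15 from 102921103 to 103036852, held 53 peaks in replicate 1 and 15 in replicate 2, or 45.8 and 13 per 100 kb. Its flanks held 24 and 6.5 per 100 kb, and the rest of the surrounding 2 Mb 28.8 and 9.18. Of all 26513 tiles of 100 kb on the placed chromosomes, 98% held fewer replicate 1 peaks than this density and 94.8% fewer replicate 2 peaks. Hoxc peaks also had high scores, with a median of 115 in replicate 1 and 51 in replicate 2. Hotspots, the broader regions of raised cutting that the authors called, covered 23.8% of the Hoxc cluster in replicate 1 and 4.16% in replicate 2, against 4.16% and 0.965% of the placed chromosomes.

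Hoxb, on chr11 from 96194316 to 96368256, held 39 and 13 peaks, or 22.4 and 7.47 per 100 kb, and the rest of its 2 Mb held more, 29.8 and 9.86. Its flanks held 26.5 and 7.5. Hoxa, on chr6 from 52155590 to 52260880, held 12 and 4 peaks. That is 11.4 and 3.8 per 100 kb, below the 15.7 and 4.91 of its 2 Mb but above the 4.5 and 3 of its flanks. Hoxd, on chr2 from 74668310 to 74765142, held 10 and 7 peaks. Its 10.3 per 100 kb in replicate 1 was below the 12.3 of its 2 Mb and the 15.5 of its flanks, while its 7.23 in replicate 2 was above the 3.21 and 5 there, so the direction differed between the lists. In both lists Hoxc was the densest cluster and had the highest median score. The order of the other 3 clusters rests on few peaks, and replicate 2 gave Hoxb and Hoxd nearly the same density.

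**Figure D3:**
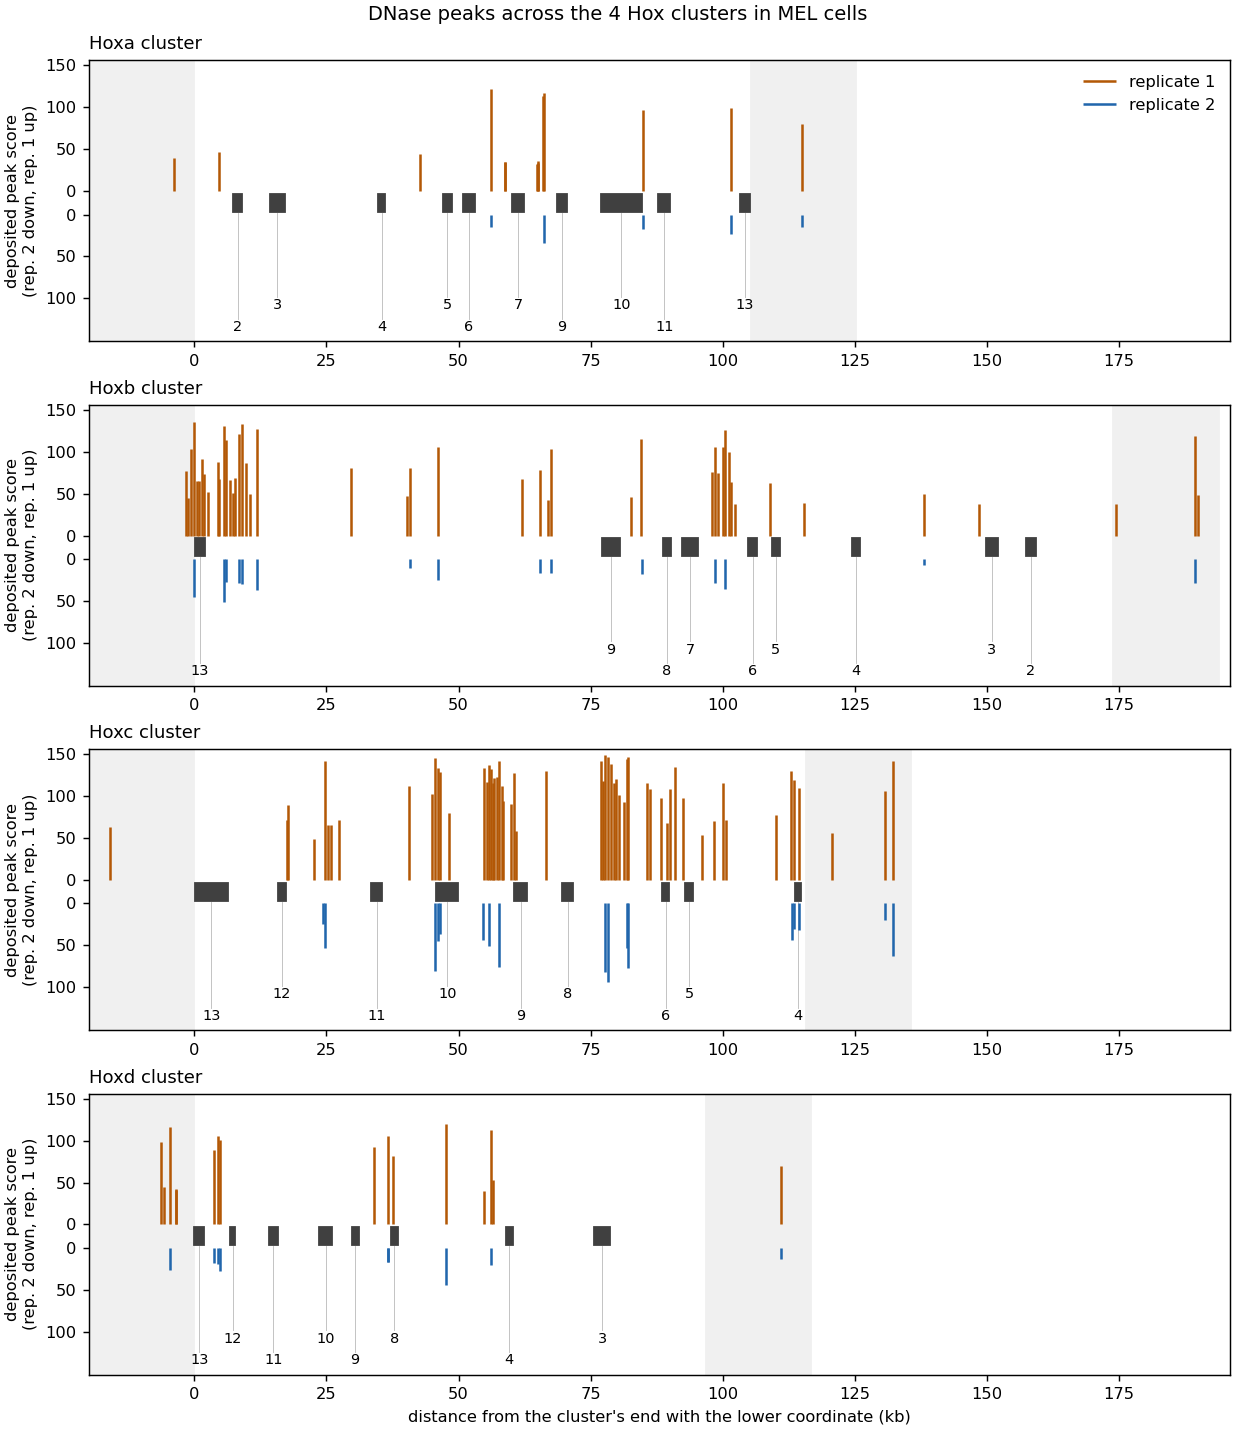
Deposited score of every peak across the 4 Hox clusters, upward for replicate 1 and downward for replicate 2, against the distance in kb from the cluster's end with the lower coordinate; dark boxes are coding extents of the genes of paralog groups 2 to 13 with their number, and shaded ends are the first 20 kb of the flanks. Peaks gather between Hoxc10 and Hoxc6 and beside Hoxb13, and are missing from the 3′ end of the Hoxd cluster and most of the 3′ part of Hoxa.

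Most cluster peaks lay outside the coding parts of the genes. The stretches between the coding extents of neighbouring Hox genes held 103 of the 114 cluster peaks in replicate 1 and 36 of 39 in replicate 2. Of the 35 such intervals, 22 held a replicate 1 peak and 16 a replicate 2 peak. Inside coding extents, which made up 17.5% of this length, there were 11 and 3 peaks. Coding extents held 12.9 peaks per 100 kb and intervals 25.6 in replicate 1, and 3.52 and 8.95 in replicate 2. By the annotated gene extents, which include long transcripts of Hoxc5, Hoxa3 and Hoxd3 that run across other Hox genes, 24 and 10 cluster peaks lay at Hox promoters, 6 and 0 in Hox exons, 45 and 13 in Hox introns and 39 and 16 between Hox genes. Both promoter counts, 24 and 10, leave out Hoxb13 promoter peaks centred just outside the cluster's edge. In replicate 1 these were peaks of 103 and 135, and in replicate 2 the peak of 45.

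The intervals of Hoxc with the most peaks ended at Hoxc9 and Hoxc6. Between Hoxc10 and Hoxc9, in 10.6 kb, there were 12 replicate 1 peaks with scores up to 142 and 3 replicate 2 peaks up to 76. Between Hoxc8 and Hoxc6, in 16.8 kb, there were 14 replicate 1 peaks up to 149 and 4 replicate 2 peaks up to 93. The widest hotspot of any cluster lay here, 6168 bp from 102997449 to 103003616 in replicate 1. It held 11 replicate 1 peaks with scores from 93 to 149, and 4 replicate 2 peaks with scores from 53 to 93.

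The highest replicate 2 peak of all 4 clusters was in this hotspot, at chr15:102999296-102999445, with 93 in replicate 2 and 147 in replicate 1. Only 2.03% of the replicate 2 list scored higher. Its sequence, printed above, is 70% GC with 11 CpG and lies in an intron of the long Hoxc5 and Hoxc6 transcripts, close to the upstream Hoxc6 start. Its neighbour at 102998716 scored 82 in replicate 2 and 149 in replicate 1, the highest Hox cluster score of that list. In contrast the promoter windows of the shorter Hoxc6 and Hoxc5 transcripts had no replicate 2 peak. The interval between Hoxc13 and Hoxc12 had no peak in either list. The one between Hoxc12 and Hoxc11, 16 kb long, held 7 replicate 1 peaks up to 142 and 2 replicate 2 peaks up to 53. The peak of 142 and 53, at chr15:102945696-102945845, lies inside Hotair, a long noncoding RNA known from work on Polycomb recruitment.

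In Hoxb many peaks gathered in a block beside Hoxb13. The 75.3 kb between Hoxb13 and Hoxb9, in a cluster of 174 kb, held 21 of the cluster's 39 peaks in replicate 1 and 9 of 13 in replicate 2. Over its whole length this interval was not the densest. It held 2.79 and 1.19 peaks per 10 kb, against 8.38 and 2.09 between Hoxb7 and Hoxb6. Joining replicate 1 hotspots less than 1500 bp apart, a rule chosen after the data were seen, gave a block of 13.2 kb from 96193412 to 96206597 that reaches over Hoxb13 and its downstream side. It held 19 replicate 1 peaks with scores from 49 to 135 and 6 replicate 2 peaks with scores from 27 to 51. The highest replicate 2 peak of the cluster, 51 with 131 in replicate 1, was in this block at chr11:96199756-96199905 and overlaps the small RNA gene Gm27898. A smaller block of 4.71 kb at the upstream Hoxb6 start held 8 replicate 1 peaks up to 126 and 2 replicate 2 peaks of 29 and 36. The part from Hoxb4 to Hoxb1 was nearly empty, with 2 replicate 1 peaks of at most 50 and 1 replicate 2 peak of 7.

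In Hoxa most peaks lay in its middle and its 5′ part. The highest replicate 2 peak, 34 with 117 in replicate 1, was between the coding extents of Hoxa7 and Hoxa9 at chr6:52221756-52221905. It was centred 23 bp from the upstream Hoxa7 start of the comprehensive annotation, and 99 of its bases lie in annotated Hoxa7 untranslated region. The highest replicate 1 peak, 121 with 15 in replicate 2, was between Hoxa6 and Hoxa7. From Hoxa2 to Hoxa6 there was 1 replicate 1 peak, of 44, and no replicate 2 peak. In Hoxd the interval between Hoxd13 and Hoxd12 held 3 peaks in each list, up to 106 and 27. The highest peak of the cluster in both lists, 120 and 44, lay between Hoxd8 and Hoxd4, in an exon of the antisense RNA Hoxd3os1 and an intron of the long Hoxd3 and Hoxd4 transcripts. The intervals from Hoxd12 to Hoxd9 and from Hoxd4 to Hoxd1 had no peak in either list.

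The widest stretches without a peak lay toward the 3′ side of the Hoxa, Hoxb and Hoxd clusters in replicate 1. In Hoxd 40.4 kb, with the starts of Hoxd1, Hoxd3 and Hoxd4, held no replicate 1 peak, and 40.7 kb held no replicate 2 peak. In Hoxa the widest empty stretch was 38.1 kb in replicate 1, with the starts of Hoxa2 and Hoxa4, and 56.1 kb in replicate 2, with those of Hoxa2, Hoxa4, Hoxa5 and Hoxa6 among others. In Hoxb it was 25.4 kb in replicate 1, with Hoxb1, Hoxb2 and Hoxb3, and 37.8 kb in replicate 2, further inside the cluster, with Hoxb3, Hoxb4, Hoxb5 and Hoxb6. In Hoxc it was 17.6 kb in replicate 1, at the other end with Hoxc12 and Hoxc13, and 30.9 kb in replicate 2, with Hoxc4, Hoxc5 and Hoxc6. Of the 32-base words of the clusters, 94.3 to 99% occurred once on the placed chromosomes.

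Motifs were searched on both strands in the 150 bp around each peak centre. The CTCF consensus, used with its degenerate letters, was found in none of the 114 replicate 1 cluster peaks (0 to 3.26%), against 2.4% of all peaks, and in none of the 39 of replicate 2 (0 to 8.97%), against 4.74%. Both intervals hold the share over all peaks. In the clusters it matched 1 position, between Hoxb13 and Hoxb9, which was in no peak. Of 13119 matches on the placed chromosomes, 51% lay in a replicate 1 peak and 32.2% in a replicate 2 peak. The relaxed form was chosen after this result was seen. It matched 23 positions in the clusters, of which 4 lay whole in a replicate 1 peak and 4 in a replicate 2 peak. That is 17.4% in each list, against 15.8% and 7.17% of the relaxed matches on the placed chromosomes. The relaxed form was found in 3.51% of replicate 1 cluster peaks (1.37 to 8.68%), against 6.41% of all replicate 1 peaks. In replicate 2 it was found in 10.3% of cluster peaks (4 of 39, 4.06 to 23.6%), against 8.99% of all replicate 2 peaks. Over all peaks of each list, and not the cluster peaks alone, windows of the same length were centred 1000 bp to either side. They held the relaxed form in 1.04% of cases in replicate 1 and 1.11% in replicate 2.

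The 5 relaxed matches that lay in a peak of either list were read along the strand of the consensus with 9 bases added at each end. Capitals mark the match.
Hoxa7 to Hoxa9, chr6:52221800-52221829, minus strand: aagaaaattCCAGGAGATGGCagtgtggct
Hoxa10 promoter, chr6:52240532-52240561, minus strand: tcgcagccgCCACGAGATGGCgcactcccg
Hoxb13 to Hoxb9, chr11:96223998-96224027, minus strand: ccacagaggCCAGAAGAGGGCgccattttt
Hoxd13 to Hoxd12, chr2:74673169-74673198, minus strand: gccaaacgcCCAGGAGATGGCgagcgtgct
Hoxd8 to Hoxd4, chr2:74715912-74715941, plus strand: gagctttgtCCAGGAGGAGGCgctgtagga
The 12 letters of the match are the same between Hoxa7 and Hoxa9 and between Hoxd13 and Hoxd12. The peaks around the matches scored 117 and 34 between Hoxa7 and Hoxa9, and 96 and 17 at the Hoxa10 promoter. The match between Hoxd8 and Hoxd4 lay in the highest peak of its cluster, at 120 and 44. The match between Hoxd13 and Hoxd12 lay whole in a replicate 2 peak of 27. The replicate 1 peak that overlaps this peak, with a score of 101, covered only part of the match. That peak ends at 74673185 and the match at 74673189. The match between Hoxb13 and Hoxb9 lay in a replicate 1 peak of 81 and no replicate 2 peak. Of the 4 replicate 2 peaks of Hoxa, 2 held a match. None of the 53 and 15 Hoxc peaks did.

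Of the other motifs, GGGCGG had a higher share in cluster peaks than over all peaks of replicate 1, with an interval above that share, and each of the rest had a 95% interval that holds the share over all peaks in both lists. AGATAA, bound by GATA factors, was in 11.4% of replicate 1 cluster peaks (6.79 to 18.5%), against 12.9% of all peaks, and in 15.4% of replicate 2 cluster peaks (7.25 to 29.7%), against 15.6%. GGGCGG, bound by SP and KLF factors, was in 14.9% of replicate 1 cluster peaks (17 of 114, 9.52 to 22.6%), against 6.58% of all peaks. In replicate 2 it was in 15.4% (7.25 to 29.7%), against 12.7%. The clusters' peaks were also richer in GC, with medians of 51.6% against 48% over all peaks in replicate 1 and 56% against 50% in replicate 2, and the part of base composition in the GGGCGG share was not tested. TGANTCA, bound by AP-1, was in 5.26% and 5.13% of cluster peaks, against 8.22% and 8.7% of all peaks. CCGGAAG, bound by ETS factors, was in 3.51% and 7.69%, against 1.57% and 3.33%, and CCATNTT, bound by YY1, in 4.39% and 7.69%, against 9.04% and 8.19%. TGATTNAT, bound by PBX and HOX proteins together, was in 1 cluster peak of replicate 1 and none of replicate 2, and the retinoic acid response element was in none.

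Noncoding genes within or up to 5 kb beside the clusters had a peak at their start about as often as noncoding genes at large. Of 47 such genes, 9 had a peak whose centre was at most 1000 bp from the gene start in replicate 1 and 5 in replicate 2, against 21.3% and 11% of all genes that are not protein-coding. None of the 7 miRNA genes did, against 24.1% and 12% of all miRNA genes. They include Mir10a, Mir10b, Mir196a-1, Mir196a-2 and Mir196b, which target Hox transcripts. Hoxd3os1 scored 120 and 44, from the highest peak of the Hoxd cluster. Hotair scored 72 at its start, in replicate 1 alone. Hottip, which activates the 5′ end of Hoxa, Hotairm1, a myeloid RNA at the 3′ end of Hoxa, and Haglr had none. These noncoding genes were named after their values were seen.

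The neighbours outside the clusters were few. Of 9 protein-coding neighbours with a start inside a cluster or within 100 kb of it, 4 had a promoter peak in replicate 1 and 3 in replicate 2. Over all protein-coding genes the shares were 58.3% and 49.4%, and no difference is drawn from 9 genes. Lnpk scored 143 and 59, Mtx2 130 and 34, and Ttll6 128 and 48, and Calcoco2 scored 64 in replicate 1 alone. Evx1 and Evx2, homeobox genes beside the 5′ ends of Hoxa and Hoxd, had none. Skap1, and 5730596B20Rik and Gm28308 inside Hoxa, had none either. None of the 9 lay beside Hoxc. The highest replicate 2 flank peak of any cluster lay beside Hoxd at chr2:74609476-74609625, between genes, with 104 in replicate 2 and 145 in replicate 1. The highest flank peaks of Hoxb and Hoxc scored 67 and 63 in replicate 2, and that of Hoxa 18.

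**Figure D4:**
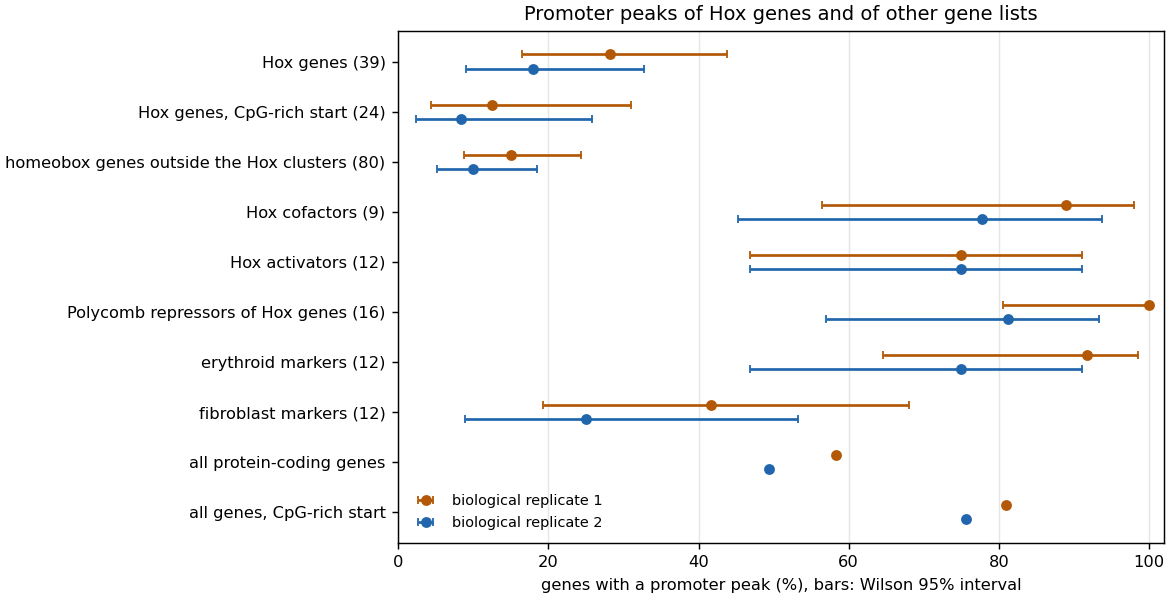
Percent of genes with a promoter peak in replicate 1 and replicate 2, for the Hox genes, for lists of genes that act with or on them, for cell type markers and for all genes; bars are Wilson 95% intervals over genes. The Hox genes, at 28.2 and 17.9%, and the homeobox genes outside the clusters, at 15 and 10%, stand to the left of the other lists, while the intervals of the short fibroblast list reach over those of the Hox genes.

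Genes that act with or on Hox genes had promoter peaks in most cases, as had 58.3% of all protein-coding genes in replicate 1 and 49.4% in replicate 2. Of 9 Hox cofactors, which bind DNA together with Hox proteins, 8 had a promoter peak in replicate 1 (56.5 to 98%) and 7 in replicate 2 (45.3 to 93.7%). The highest were Pbx4 (148 and 92), Pknox1 (145 and 77), Meis1 (145 and 65) and Meis2 (143 and 47). Of 12 activators, 9 had one in each list (46.8 to 91.1%). The intervals of both lists hold the share over all genes. They include the histone methyltransferase gene Kmt2a (140 and 72) with its partners Men1 (149 and 92), Ash2l (149 and 77) and Wdr5 (144 and 69). The 3 without a peak were Cdx1, Cdx2 and Cdx4, caudal factors that switch on posterior Hox genes. Of 16 genes of the Polycomb complexes, which keep Hox genes silent, 16 had a promoter peak in replicate 1 (80.6 to 100%) and 13 in replicate 2 (57 to 93.4%). Both intervals lie above the share over all genes. They hold the 81% and 75.6% of all genes with a CpG-rich start, and the part of promoter class was not tested. The highest replicate 2 scores of the Polycomb genes were at Jarid2 (148 and 94), Cbx8 (141 and 86), the histone methyltransferase gene Ezh2 (143 and 80), and Suz12 (149 and 78).

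The homeobox genes outside the clusters were set beside the Hox genes as developmental genes of the same superfamily. The Hox genes had a promoter peak in 28.2% and 17.9% of cases. Of the 80 other homeobox genes, 12 (15%, 8.79 to 24.4%) had one in replicate 1 and 8 (10%, 5.15 to 18.5%) in replicate 2, so the intervals of both sets overlap. The highest of them were Six5 (148 and 80), Pitx3 (137 and 69), Hlx (135 and 61) and Vax2 (134 and 53). The 68 with no promoter peak in either list include Alx1, Alx4, Barx1, Barx2, Dlx2, Dlx3, Dlx4, Dlx5, Dlx6, Emx1, Emx2, En1, En2, Evx1, Evx2, Gbx2, Gsx1, Gsx2, Irx1, Irx2, Irx3, Irx4, Irx5, Irx6, Isl1, Isl2, Lbx1, Lhx1, Lhx2, Lhx4, Lhx5, Lhx8, Lhx9, Lmx1a, Lmx1b, Meox1, Meox2, Mnx1, Msx1, Msx2, Nkx2-1, Nkx2-2, Nkx2-3, Nkx2-5, Nkx3-2, Nkx6-1, Nkx6-2, Otx1, Otx2, Pdx1, Pitx1, Phox2a, Prrx1, Six2, Six3, Six4, Six6, Tlx1, Tlx2, Tlx3, Vax1 and Vsx1.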

How the data were processed

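The authors deposited, per the labels and the notes with them, 1 peak list and 1 hotspot list for each biological replicate, on mm10. The aligner, caller and depth are not given in the sources used here, and the precision that depth gives is unknown. Peaks carry a deposited score (whole numbers from 1 to 150), and hotspots a deposited −log10 q-value from 1.3 to 100, which served for 1 alternative. Exact repeats were dropped, which removed 67 and 7 peak lines.

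Positions were compared with GRCm38 and GENCODE M21 in matplotlib 3.10.9, scipy 1.17.1, pandas 2.3.3 and numpy 2.4.6 under Python 3.11.15. Densities and motif shares use the placed chromosomes. Peaks were shared when at least 1 bp overlapped. Wilson intervals at the 95% level cover counting error over genes or peaks only. The counting code was tested on simulated data.

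The members, the gene lists and the rule for naming were chosen with earlier results of these data known. The rule names all Hox genes, at most 4 members of a list by replicate 2 score, list members with no peak, up to 3 neighbours per cluster and the highest peaks. Some items that it names are not reported here. Alternatives were other widths, starts, overlap rules, list lengths, flanks, motif windows, hotspots and each replicate alone.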

Additional observations from a re-analysis of the deposited data

How the results depend on the processing

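Of the counts that the comparisons rest on, 64 alternative values stayed within 1.5 times the reported one, or for the share of cluster peaks found in the other list within its 95% interval, and 13 did not; of the counts for single clusters and motifs, 39 did and 27 did not. With a window of 2500 bp the replicate 1 Hox promoter count was 17, and the other homeobox genes had 24 in replicate 1 and 15 in replicate 2. With the higher-scoring 50% of each list the Hox promoter count was 4 in replicate 2 and 4 in both lists, and 18 cluster peaks were left in replicate 2. With both lists limited to the same length, replicate 1 had 58 cluster peaks, a flank density of 5.12 per 100 kb and 55.2% of its cluster peaks found in replicate 2, while 84.6% of the replicate 2 cluster peaks were found in replicate 1. Hotspots counted by centre gave 68 in the clusters in replicate 1. Hotspots at or above their list's median covered 1.06% of the clusters in replicate 2. Leaving out a replicate gave from 7 to 11 Hox genes, against 7 in both lists. The Hoxb count without the stretch from the annotated end of Hoxb13, untranslated part included, to the annotated start of Hoxb9 was 19 in replicate 1 and 4 in replicate 2. The cause was not tested, apart from the number of peaks or the window that an alternative itself changes. No paired analysis was possible because there is 1 condition and the result comes from no test. The unknown depth limits any statement on sites without a peak.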
